A study of Caenorhabditis elegans with 17 samples.

Results

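The RNA exosome subunit genes described here are 9 of the 20471 protein-coding genes in the counts of small RNA from C. elegans. They are dis-3, exos-1, exos-2, exos-3, exos-4.1, exos-7, exos-9, crn-5 and exos-10, chosen by name and not by their reads. The gene annotation used here has no exos-10. It holds crn-3 (C14A4.4) at the place of the RRP6 homologue, and crn-3 was taken as exos-10 from background knowledge. The questions were whether the reads of a mutated subunit gene show its label, and whether small RNA on the other subunits differed when 1 part of the exosome was mutated.

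The libraries of total small RNA from L3 animals came from dis-3(ust56), exos-1(ust57) and eri-1(mg366) mutants, from N2, the wild type, and from mutants that add an exosome allele to eri-1(mg366). The added alleles were dis-3(ust56), exos-1(ust57) or exos-10(ok2269), and in 1 strain dis-3(ust56) with both polymerase alleles, rrf-1(pk1417) and also rrf-2(ok210). These strains are written eri-1;dis-3, eri-1;exos-1, eri-1;exos-10 and eri-1;dis-3;rrf-1;rrf-2, and their comparison library is eri-1(mg366). The libraries of small RNA bound to 3xFLAG::GFP::NRDE-3 (called IP) also came from L3 animals. All of them carried eri-1(mg366) and the tagged NRDE-3, and added the same alleles or no other mutation (IP control). The promoter of the tagged NRDE-3 is not given in the sources used here. Young adult eri-1(mg366) animals were fed fib-1, nol-56, mtr-4 or empty vector (L4440) RNAi. All 17 libraries were grown at 20°C, each condition has 1 library, and no difference has a replicate check. The allele dis-3(ust56) is a missense mutation, exos-1(ust57) is a deletion made by CRISPR/Cas9, and how much of the gene exos-10(ok2269) removes is not given in the sources used here. Homozygotes of the exos-1 and exos-10 alleles have few progeny, and how the sequenced animals were picked is not stated.

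The RNA exosome is a nuclear and cytoplasmic complex that trims and degrades RNA from its 3′ end. In yeast and human, a barrel of 6 RNase PH-like proteins carries a cap of S1 and KH domain proteins. The activity comes from DIS3 (RRP44), an exonuclease and endonuclease at the bottom of the barrel, and from RRP6, a nuclear exonuclease near the cap. In worms the barrel includes EXOS-4.1, EXOS-7, EXOS-9 and CRN-5, and the cap is EXOS-1, EXOS-2 and EXOS-3. The helicase MTR-4 feeds nuclear RNA to the complex. Antisense small RNAs on worm genes are largely 22G-RNAs, made on the transcript by RNA-dependent RNA polymerases such as RRF-1, and NRDE-3 is the Argonaute that carries such RNAs into somatic nuclei. Sense reads in such libraries are largely fragments of the transcript itself.

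The reads counted on transcripts numbered 5094044 in the smallest library and 17155685 in the largest. Antisense reads were expressed in RPM, the reads per 1000000 of a normalization number that leaves out sense rRNA and sense protein-coding reads. Sense reads were expressed per 1000000 sense protein-coding reads. The limit that a count of 0 allows, 3 reads, lay between 0.441 and 20.6 antisense RPM, and it was highest in IP dis-3(ust56), whose normalization number was 145733 against 1414376 in the IP control. The 6 vitellogenin genes vit-1 to vit-6, adult markers, summed to at most 38.3 sense reads per 1000000 in total small RNA of L3 animals and to at least 36838 in young adults. The IP libraries ranged from 16.7 in IP dis-3(ust56) to 1900 in the IP control and 2613 in the library labelled IP exos-10(ok2269). The part of this difference in the results was not tested. All intervals are exact 95% intervals and cover counting error only. A ratio of 2 libraries was called when it was past 2-fold and its interval excluded 1, with at least 10 reads over both.

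The 9 genes lie on chromosomes I to V of WBcel235. The genes dis-3 (C04G2.6, IV:10097202-10106523), exos-2 (IV:6415478-6417460) and exos-4.1 (IV:13098999-13100617) are on the same chromosome, on the plus strand. The genes crn-3 (II:10588042-10592652) and crn-5 (II:10592752-10593591) follow each other on the plus strand, with 99 bases between them. exos-1 (Y48A6B.5, III:11009043-11010588) is on the plus strand and exos-9 (III:7196224-7198073) on the minus strand. exos-3 (I:10518379-10519258) and exos-7 (V:20838865-20841582) are on the plus strand. Counts are of whole transcripts, so exons and UTRs were not told apart. Of the exons of exos-4.1, 1184 bases are also exon of tin-9.2, a gene for a mitochondrial import protein, on the same strand. The reads of exos-4.1 may therefore be divided with tin-9.2 and are uncertain. On the opposite strand, crn-5 shares 63 exon bases with C14A4.6, exos-7 shares 9 with F31D4.2 and exos-2 shares 5 with Y73B6BL.22, and there an antisense read of the subunit gene is a sense read of the other gene.

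All 9 genes had antisense reads in N2, where they were among the more abundantly targeted genes. Per kilobase of exon, their antisense levels in N2 ranked between percentile 72.5 (exos-4.1) and percentile 91.7 (exos-3) of 20168 genes. crn-3 had 96 antisense and 37 sense reads in N2, dis-3 had 73 antisense and 47 sense reads, and exos-9 had 46 antisense and 23 sense reads. Of the rest, exos-4.1 and exos-7 had fewer antisense than sense reads in N2, at 10 against 27 and 12 against 16. Over the 17 libraries, the antisense reads of the 9 genes together made between 0.0203% (mtr-4 RNAi) and 0.0715% (the library labelled IP exos-10(ok2269)) of the antisense protein-coding reads. crn-3 held the most antisense reads over all libraries, 1292, and dis-3 the next most, 1126. The genes exos-3 and exos-4.1 were each at 0 antisense reads in 1 library, IP dis-3(ust56) and the IP control.

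**Figure D1:**
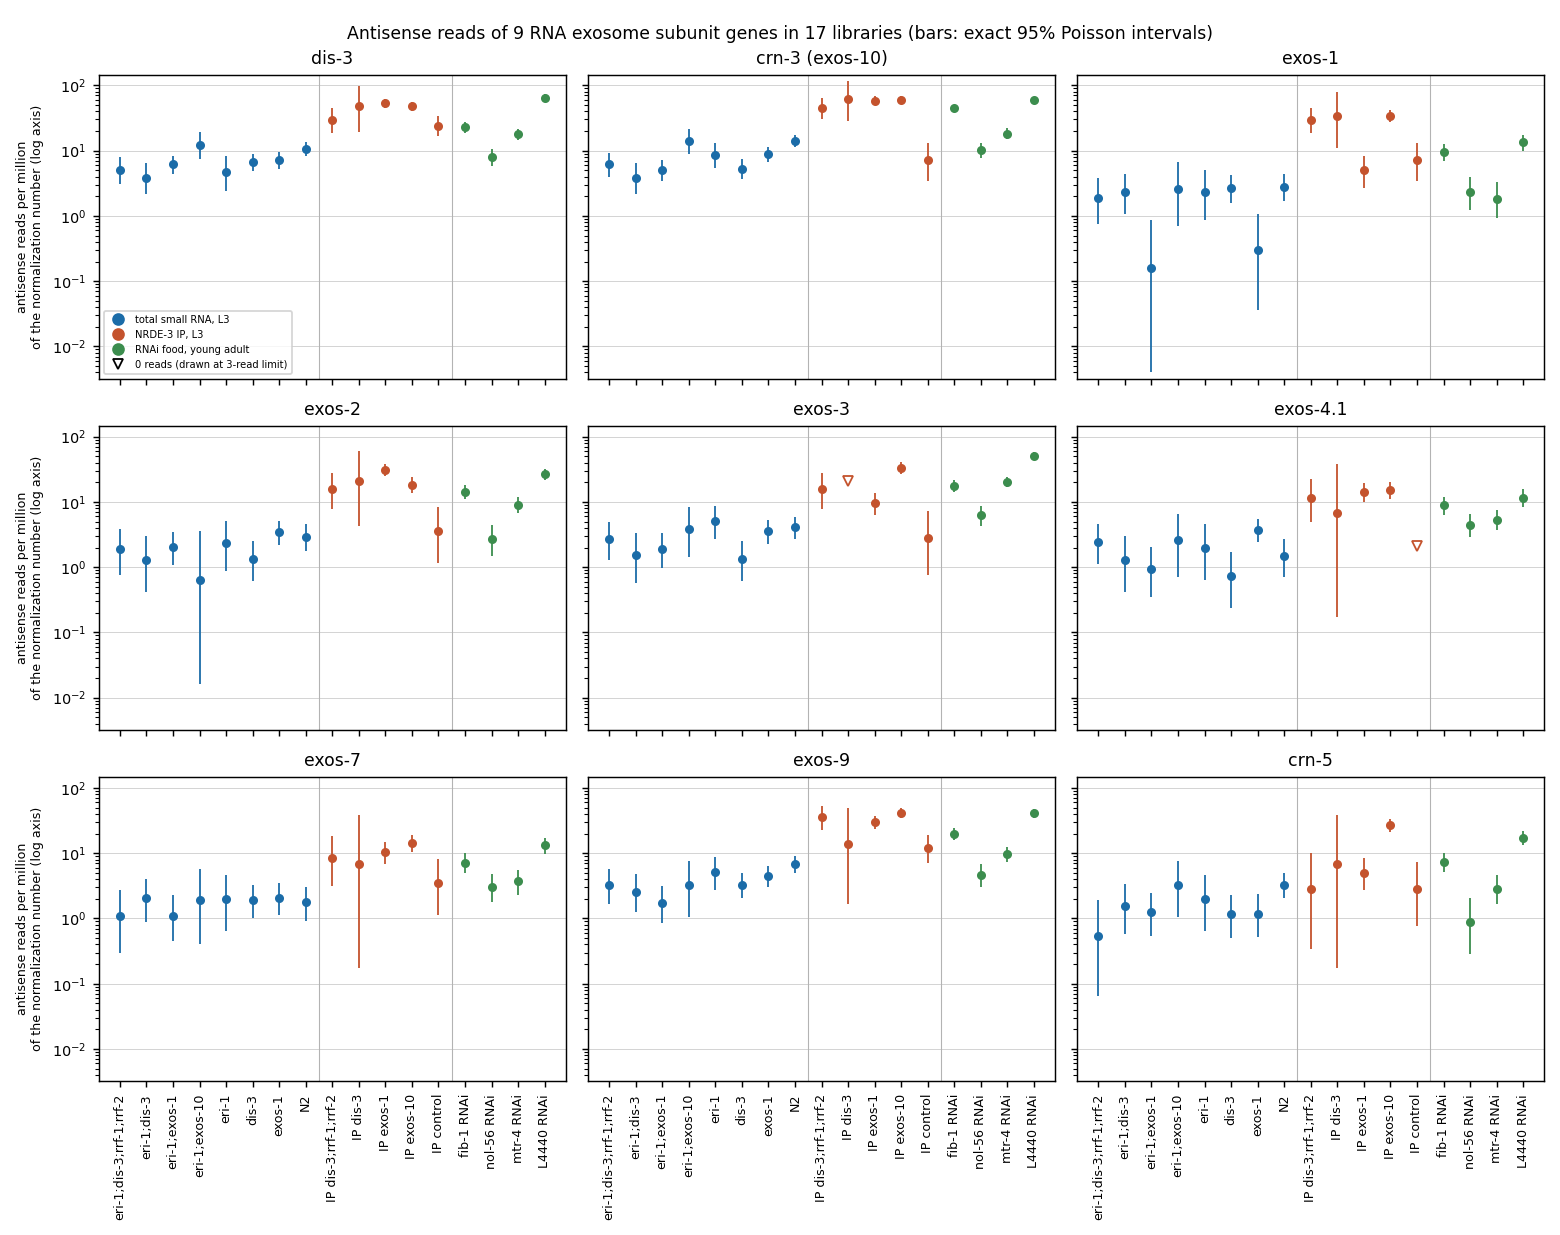
Antisense reads of each exosome gene in every library, in reads per 1000000 of the normalization number on a log axis. Points are single libraries, bars are exact 95% Poisson intervals, and open triangles mark 0 reads, drawn at the 3-read limit. exos-1 is lowest in the 2 total small RNA libraries labelled exos-1(ust57), at 0.158 and 0.296, and all 9 genes are highest in L4440 among the 4 RNAi libraries.

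The label of exos-1(ust57) was checked on exos-1, which encodes a cap subunit (CSL4 in yeast). In total small RNA, exos-1 had 2 antisense reads in exos-1(ust57), against 19 in N2. The eri-1;exos-1 library had 1, against 6 in eri-1(mg366). The other 8 genes together had 232 antisense reads in exos-1(ust57), against 307 in N2. The antisense ratio of exos-1 was 0.106 (0.0120 to 0.439) for exos-1(ust57) over N2, and 0.101 relative to the median gene of that comparison. Sense reads of exos-1 numbered 2 in exos-1(ust57), against 10 in N2, a ratio of 0.132 (0.0141 to 0.621). In eri-1;exos-1 there was 1 sense read, against 2 in eri-1(mg366), too few to compare. Both strands of exos-1 were thus lower in exos-1(ust57) than in N2, and a few reads were left. Where in exos-1 these reads lie cannot be read from counts per transcript.

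In the library labelled IP exos-1(ust57), the antisense reads of exos-1 were low relative to the other members, and the sense reads were not. This library had 14 antisense and 70 sense reads on exos-1, against 10 and 47 in the IP control. In antisense RPM, exos-1 was not called lower than in the IP control. The sense ratio was 0.912 (0.621 to 1.35). For antisense reads, the other 8 genes together had 597 in IP exos-1(ust57), against 79 in the IP control, so that exos-1 was at 0.185 (0.0765 to 0.466) relative to them. The library labelled IP exos-10(ok2269) is closer in depth, with a normalization number of 2943693 against 2819572. Compared with it, a comparison added after the values were seen, exos-1 had 14 antisense reads in IP exos-1(ust57), against 100 in IP exos-10(ok2269). That ratio was 0.146 (0.0771 to 0.257), while the sense reads were 70 in each. crn-5, with 14 antisense reads against 79, and exos-3, with 27 against 98, were also called lower there, so the lower reads were not particular to exos-1. The sense reads of the library labelled IP exos-1(ust57) therefore do not show the label, and it is called by its label here.

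As a share of the antisense reads of all 9 genes, exos-1 made 0.775% (0.0196% to 4.24%) in eri-1;exos-1, 0.855% (0.104% to 3.05%) in exos-1(ust57) and 2.29% (1.26% to 3.81%) in the library labelled IP exos-1(ust57). In the other 14 libraries this share ranged from 2.09% to 17.2%, with a median of 7.21%. The lowest of those, mtr-4 RNAi at 2.09% (1.05% to 3.70%), lay within the range of the libraries labelled exos-1(ust57), and its label names no exos-1 mutation. As a share of sense reads, exos-1 made 0.585% and 0.722% in the total libraries labelled exos-1(ust57), 7.35% in the IP library so labelled, and between 1.68% and 10.2% elsewhere.

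**Figure D2:**
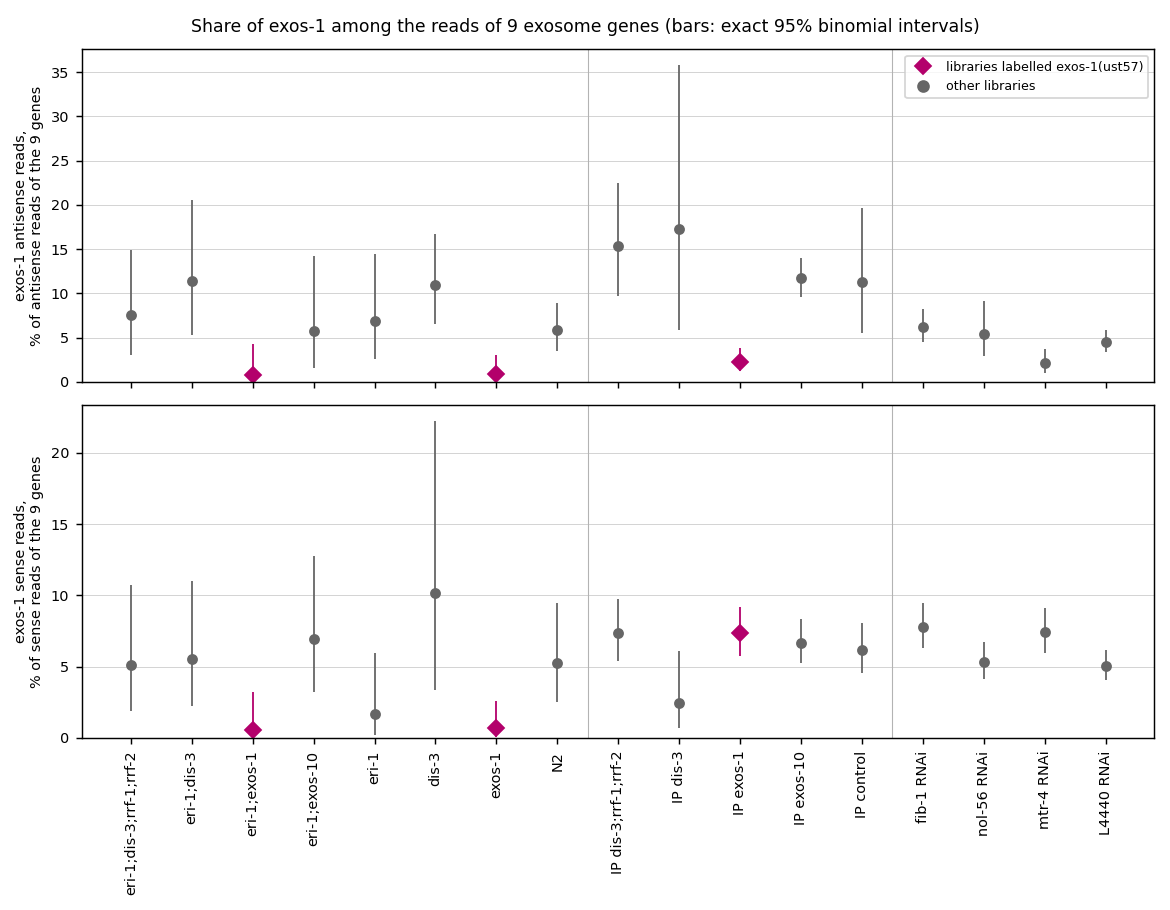
Reads of exos-1 as a percentage of the antisense (top) and sense (bottom) reads of the 9 exosome genes in each library, with exact 95% binomial intervals. Diamonds are the 3 libraries labelled exos-1(ust57). In antisense reads they lie between 0.775% and 2.29%, and mtr-4 RNAi at 2.09% lies among them. In sense reads the IP library labelled exos-1(ust57) is at 7.35%, within the range of the other libraries.

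The label exos-10(ok2269) was not shown by an absence of crn-3 reads. crn-3 encodes the homologue of the nuclear exonuclease RRP6. In total small RNA it had 29 sense reads in eri-1;exos-10 and 29 in eri-1(mg366). The antisense reads were 22 in each. The sense ratio per sense protein-coding reads was 1.99 (1.15 to 3.45), and relative to the other 8 genes it was 0.891 (0.514 to 1.55). In the IP, crn-3 had 182 sense reads in the library labelled exos-10(ok2269), against 197 in the IP control, a ratio of 0.613 (0.498 to 0.754). Relative to the other 8 genes this ratio was 0.603 (0.490 to 0.741), and relative to the median gene 0.435 (0.353 to 0.534), which was called lower (17.3% of all). The 2 transcripts of crn-3 went opposite ways. C14A4.4a had 106 sense reads in the IP labelled exos-10(ok2269), against 172 in the IP control, and C14A4.4b had 76 against 25. The lower sum is therefore not a loss over the whole gene. The antisense reads of crn-3 in the IP were 176 in the library labelled exos-10(ok2269), against 10 in the IP control. Both libraries with exos-10(ok2269) are therefore called by their label.

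dis-3(ust56) changes a codon, so the reads of dis-3 check no label. dis-3 had 17 sense reads in dis-3(ust56), against 47 in N2, a ratio of 0.868 (0.467 to 1.54). It had 34 in eri-1;dis-3, against 38 in eri-1(mg366), a ratio of 0.925 (0.565 to 1.51). Neither of these ratios was past 2-fold, and neither interval excluded 1. In the IP, dis-3 had 76 sense reads in IP dis-3(ust56), against 325 in the IP control. Scaled to sense protein-coding reads, its level was 90.9 (71.6 to 114) in IP dis-3(ust56), against 139 (124 to 155). These intervals do not overlap, but dis-3 was not called lower there. Relative to the other members, its sense ratio in the IP was 1.15 (0.886 to 1.48).

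In dis-3(ust56) the antisense reads of 4 subunit genes, crn-3, exos-3, exos-9 and crn-5, were called lower than in N2. The median log2 ratio of the 9 genes was -1.06, beside -0.71 for the 7194 genes tested, and 6 of the 9 lay below the median gene. Of the 9, 4 were called lower (29.9% of all genes tested) and 0 higher (9.67% of all). crn-3 fell to 5.30 RPM in dis-3(ust56), against 14.1 RPM in N2 (ratio 0.376, 0.249 to 0.557). exos-3, a cap subunit gene, had 9 reads in dis-3(ust56), against 28 in N2 (ratio 0.322, 0.134 to 0.702). exos-9 had 22 and 46 reads, and crn-5 had 8 and 22 reads, in dis-3(ust56) and N2. Set against the median gene, 0 of the 9 were called in either direction (10.7% of all lower, 16.9% higher). A ratio relative to the median gene is the same under every choice of denominator. This measure was added after the values were seen.

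In exos-1(ust57), apart from exos-1, crn-5 was called lower and exos-4.1 higher in antisense reads than in N2. Of 8020 genes tested, 12.1% were called lower and 19.9% higher. crn-5, a barrel subunit gene, had 8 reads in exos-1(ust57), against 22 in N2, a ratio of 0.366 (0.141 to 0.853). exos-4.1, also of the barrel, had 25 in exos-1(ust57), against 10 in N2, a ratio of 2.51 (1.17 to 5.87). Summed with tin-9.2, which shares its exon, the reads were 31 against 16, and the ratio of 1.95 (1.03 to 3.81) was not past 2-fold. The calls relative to the median gene were on the same genes, exos-1 and crn-5 lower (13.2% of all) and exos-4.1 higher (19.0%). The other 6 genes were not called. The median log2 ratio of the 9 was -0.60, beside 0.07 for all genes tested. The comparisons of dis-3(ust56) and exos-1(ust57) share the N2 library.

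On the eri-1(mg366) background the members had few antisense reads, 69 to 129 over all 9 genes in a library. In eri-1;dis-3, 2 of 9 were called lower than in eri-1(mg366) (29.2% of 5077 genes) and 0 higher (5.02%). They were crn-3, with 15 reads against 22, and exos-3, with 6 against 13. In eri-1;exos-1, 2 of the 8 that passed 10 reads were called lower (23.8% of all) and 0 higher (9.79%). They were exos-3, with 12 reads against 13 in eri-1(mg366), and exos-9, with 11 against 13. In the library labelled eri-1;exos-10, 1 of 6 was called higher (31.7% of all) and 0 lower (8.05%). That gene was dis-3, with 19 reads against 12, a ratio of 2.60 (1.20 to 5.87). With rrf-1 and rrf-2 also mutated, 0 of 8 were called higher (12.7%) or lower (4.25%) than in eri-1;dis-3. By ratios relative to the median gene, 0 members were called in any of these 4 comparisons, in which 11.5%, 14.4%, 13.8% and 4.48% of all genes were called higher and 11.2%, 18.0%, 15.9% and 7.11% lower. eri-1(mg366) itself had 1 gene called lower than N2 (13.2% of all, 12.2% higher), dis-3, with 12 reads against 73, and 0 relative to the median gene (8.59% of all lower, 16.1% higher).

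Per sense protein-coding reads, the sense reads of the catalytic subunit genes dis-3 and crn-3 and of the cap gene exos-2 were called in 0 of the 14 planned comparisons. dis-3 and crn-3 passed 10 reads in all 14, and exos-2 in 9. The share of all genes with 0 calls was not counted. Relative to the median gene, dis-3 was called lower in IP exos-1(ust57) and crn-3 in IP exos-10(ok2269). dis-3 ranged from 52.4 to 139 and crn-3 from 40.1 to 118 sense reads per 1000000 over the 17 libraries.

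**Figure D3:**
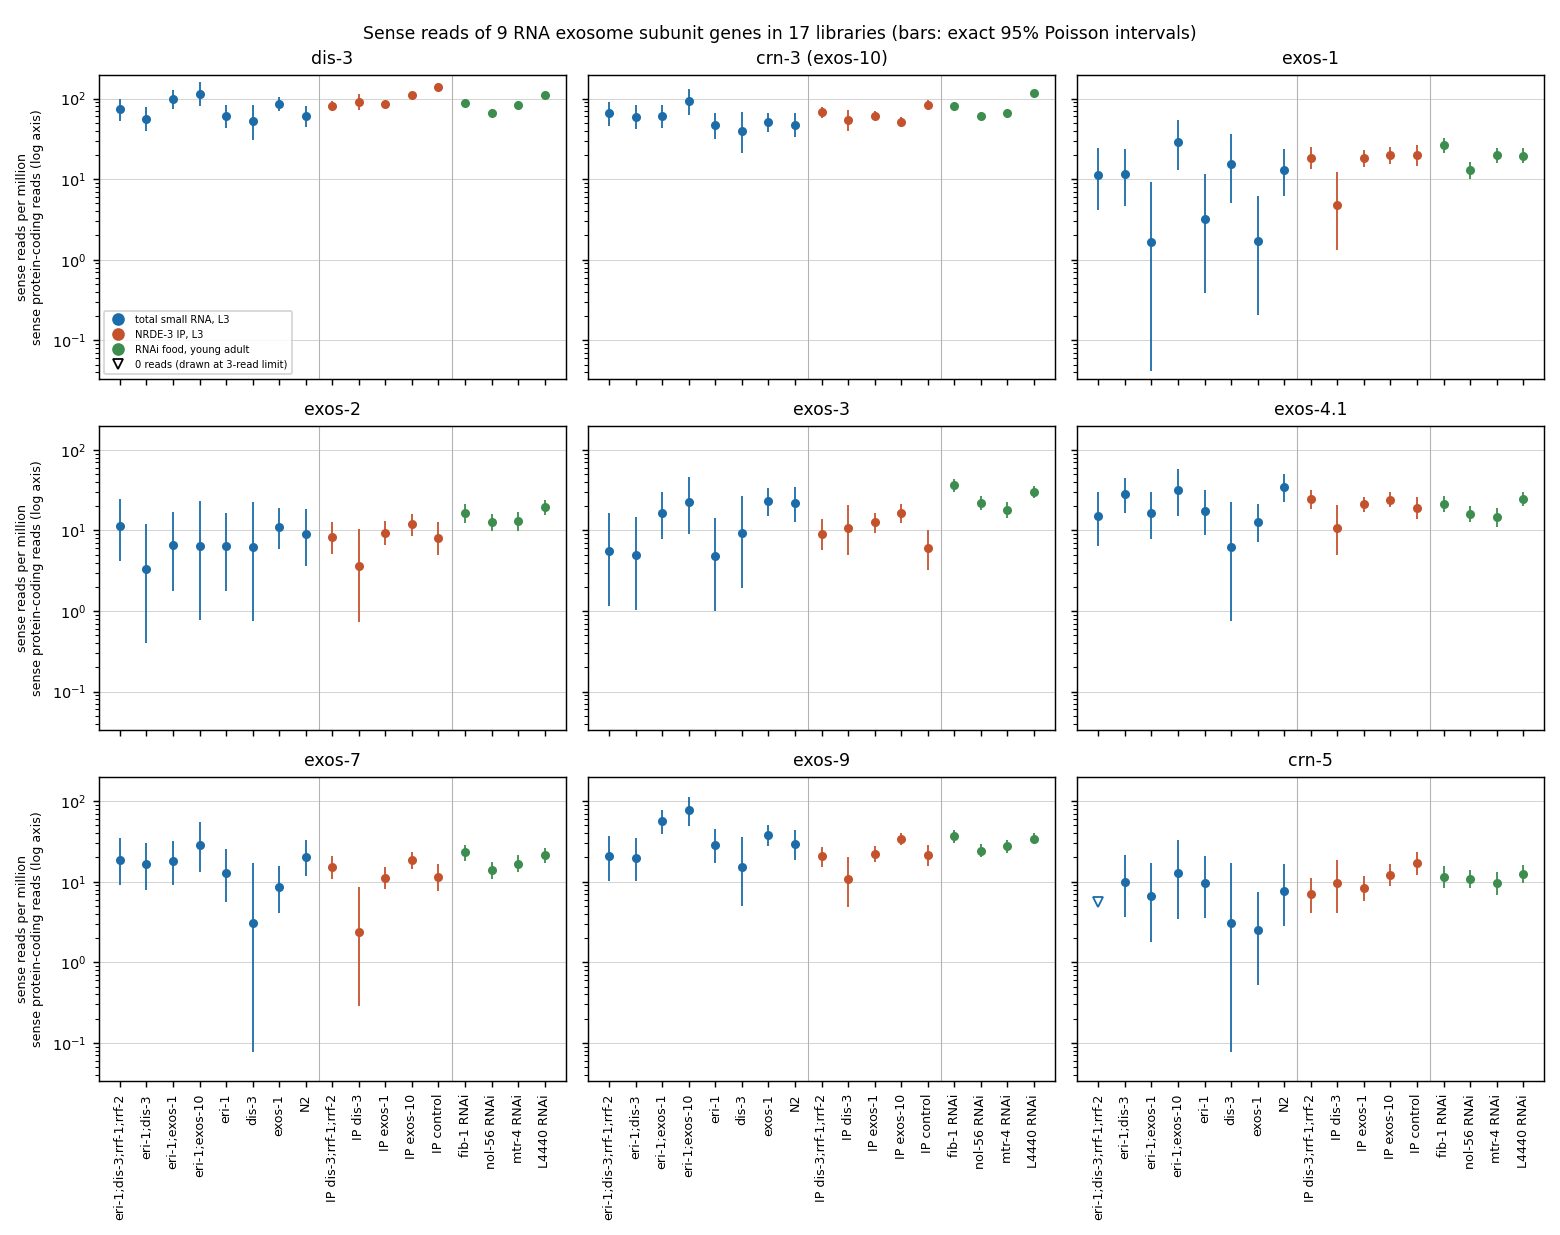
Sense reads of each exosome gene in every library, per 1000000 sense protein-coding reads on a log axis, with exact 95% Poisson intervals. dis-3 stays between 52.4 and 139 in all 17 libraries, while exos-1 is lowest in the 2 total libraries labelled exos-1(ust57), at 1.65 and 1.70.

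In total small RNA, the sense calls fell on exos-1, exos-3, exos-4.1, exos-7 and exos-9. In dis-3(ust56), which had 49 sense reads over the 9 genes, 2 of 7 were called lower than in N2 (6.46% of all, 6.54% higher). exos-4.1 had 2 reads against 27, and exos-7 had 1 against 16. Summed with tin-9.2, exos-4.1 had 4 reads against 37, a ratio of 0.259 (0.0672 to 0.722). In exos-1(ust57), 3 of 8 were called lower (10.1% of all) and 0 higher (9.15%). Beside exos-1, these were exos-4.1, with 15 reads against 27, and exos-7, with 10 against 16. Summed with tin-9.2, exos-4.1 had 28 sense reads in exos-1(ust57), against 37 in N2. That ratio of 0.501 (0.295 to 0.841) was just within 2-fold. In the library labelled eri-1;exos-10, 3 of 8 were called higher than in eri-1(mg366) (13.3% of all) and 0 lower (6.87%). exos-1 had 9 sense reads against 2, exos-3 had 7 against 3, and exos-9 had 24 against 18. With all reads on transcripts as denominator, 0 were called there. In eri-1(mg366), exos-3 alone was called lower than in N2, with 3 reads against 17 (13.9% of all lower, 5.12% higher). In the other 3 comparisons of total small RNA 0 members were called. Of all genes, 8.03% were called higher and 5.09% lower in eri-1;dis-3, 24.3% and 13.2% in eri-1;exos-1, and 5.26% and 3.17% in eri-1;dis-3;rrf-1;rrf-2.

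In the NRDE-3 IP, nearly all subunits had more antisense RPM in the library labelled IP exos-1(ust57) and in that labelled IP exos-10(ok2269) than in the IP control, as did most genes. In the library labelled IP exos-1(ust57), 7 of 9 were called higher (75.6% of 9527 genes) and 0 lower (2.31%), all but exos-1 and crn-5. In the library labelled IP exos-10(ok2269), 8 of 9 were called higher (72.3% of 9616 genes) and 0 lower (2.07%), all but dis-3. crn-3 had 58.2 RPM in IP exos-1(ust57) and 59.8 RPM in IP exos-10(ok2269), against 7.07 RPM in the IP control. exos-4.1 had 40 and 45 reads in these libraries, against 0 in the IP control, which was 6.69-fold and 7.21-fold higher with the control set at 3 reads. Summed with tin-9.2, the reads were 62 and 65, against 8 in the IP control. Those ratios were 3.89 (1.86 to 9.40) and 3.90 (1.87 to 9.42), both called higher. Both comparisons share the IP control. Per antisense protein-coding reads instead, 2 were called higher and 1 lower in IP exos-1(ust57), and 4 higher in IP exos-10(ok2269).

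dis-3 was low relative to the median gene in both. It had 151 antisense reads in IP exos-1(ust57) and 140 in IP exos-10(ok2269), against 34 in the IP control, which was 0.383 (0.263 to 0.574) and 0.345 (0.236 to 0.518) of the median ratio. In IP exos-1(ust57), exos-1 at 0.121 (0.0499 to 0.304) and exos-9 at 0.427 (0.251 to 0.767) were also called lower than the median gene (16.9% of all). In IP exos-10(ok2269), dis-3 was the only member so called (18.0% of all). No member was called higher than the median gene, where 7.32% and 5.91% of all genes were.

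The libraries labelled IP exos-1(ust57) and IP exos-10(ok2269) also differed from each other at other subunits. Beside exos-1, crn-5 had 14 antisense reads in IP exos-1(ust57), against 79 in IP exos-10(ok2269), a ratio of 0.185 (0.0968 to 0.329). exos-3 had 27 against 98, a ratio of 0.288 (0.181 to 0.444). These 3 of 9 were called lower (12.7% of 11279 genes) and 0 higher (15.9%). The same 3 were called lower relative to the median gene (13.3% of all, 15.2% higher). The sense reads of the 9 genes gave 0 calls between these libraries (5.26% of all higher, 11.8% lower).

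In IP dis-3(ust56), which had 29 antisense reads over the 9 genes, only 4 passed 10 reads. Of these, crn-3, with 9 reads against 10 in the IP control, and exos-1, with 5 against 10, were called higher (39.9% of all) and 0 lower (1.61%). crn-3 was also called higher relative to the median gene (13.8% of all, 9.67% lower), at 3.49 (1.26 to 9.57). With rrf-1 and rrf-2 also mutated, 0 of 6 were called higher (11.0%) or lower (7.89%) than in IP dis-3(ust56), and 0 relative to the median gene (4.1% higher, 12.9% lower).

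Sense reads gave calls in each of the planned IP comparisons. In IP dis-3(ust56), exos-1, with 4 reads against 47, and exos-7, with 2 against 27, were called lower than in the IP control (23.4% of all, 7.71% higher). With rrf-1 and rrf-2 also mutated, exos-1, exos-4.1 and exos-7 were called higher than in IP dis-3(ust56) (29.0% of all, 11.4% lower). exos-3 was called higher in both the library labelled IP exos-1(ust57), with 48 reads against 14 in the IP control (24.5% of all), and the one labelled IP exos-10(ok2269), with 58 against 14 (27.0% of all). crn-5 was called lower in IP exos-1(ust57), with 32 against 40 (14.1% of all), and 0 members were lower in IP exos-10(ok2269) (9.47%). With sense miRNA reads as denominator, exos-1 in IP dis-3(ust56) was instead called higher, at 6.89 (1.80 to 18.9), as was crn-5 in IP exos-1(ust57), at 4.06 (2.47 to 6.63). That denominator itself differed widely, with 9776 reads in IP dis-3(ust56) and 155958 in IP exos-1(ust57), against 791848 in the IP control.

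By sense ratios relative to the median gene, fewer members were called. exos-4.1 was called lower in dis-3(ust56) than in N2 (4.56% of all lower, 8.07% higher), and exos-1 and exos-4.1 in exos-1(ust57) (9.01% lower, 9.82% higher). exos-3 was called lower in eri-1(mg366) than in N2 (9.59% lower, 8.01% higher). exos-1 and exos-9 were called higher in the library labelled eri-1;exos-10 than in eri-1(mg366) (10.5% higher, 8.90% lower). In the IP, exos-1 was called lower in dis-3(ust56) (10.2% lower, 15.1% higher), dis-3 and crn-5 in exos-1(ust57) (19.1% lower, 17.2% higher) and crn-3 in exos-10(ok2269) (17.3% lower, 14.8% higher). exos-7 was called higher in the IP with rrf-1 and rrf-2 mutated than in IP dis-3(ust56) (10.6% higher, 19.6% lower). In eri-1;dis-3 (7.27% higher, 5.82% lower), eri-1;exos-1 (17.8% each way) and eri-1;dis-3;rrf-1;rrf-2 (4.56% higher, 3.75% lower), 0 were called. The RNAi libraries also gave 0, with 22.5% and 12.2% of all genes higher and lower in fib-1 RNAi, 30.0% and 22.9% in nol-56 RNAi, and 21.9% and 12.4% in mtr-4 RNAi. Between the libraries labelled IP exos-1(ust57) and IP exos-10(ok2269) there were 0 (6.56% higher, 10.2% lower).

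**Figure D4:**
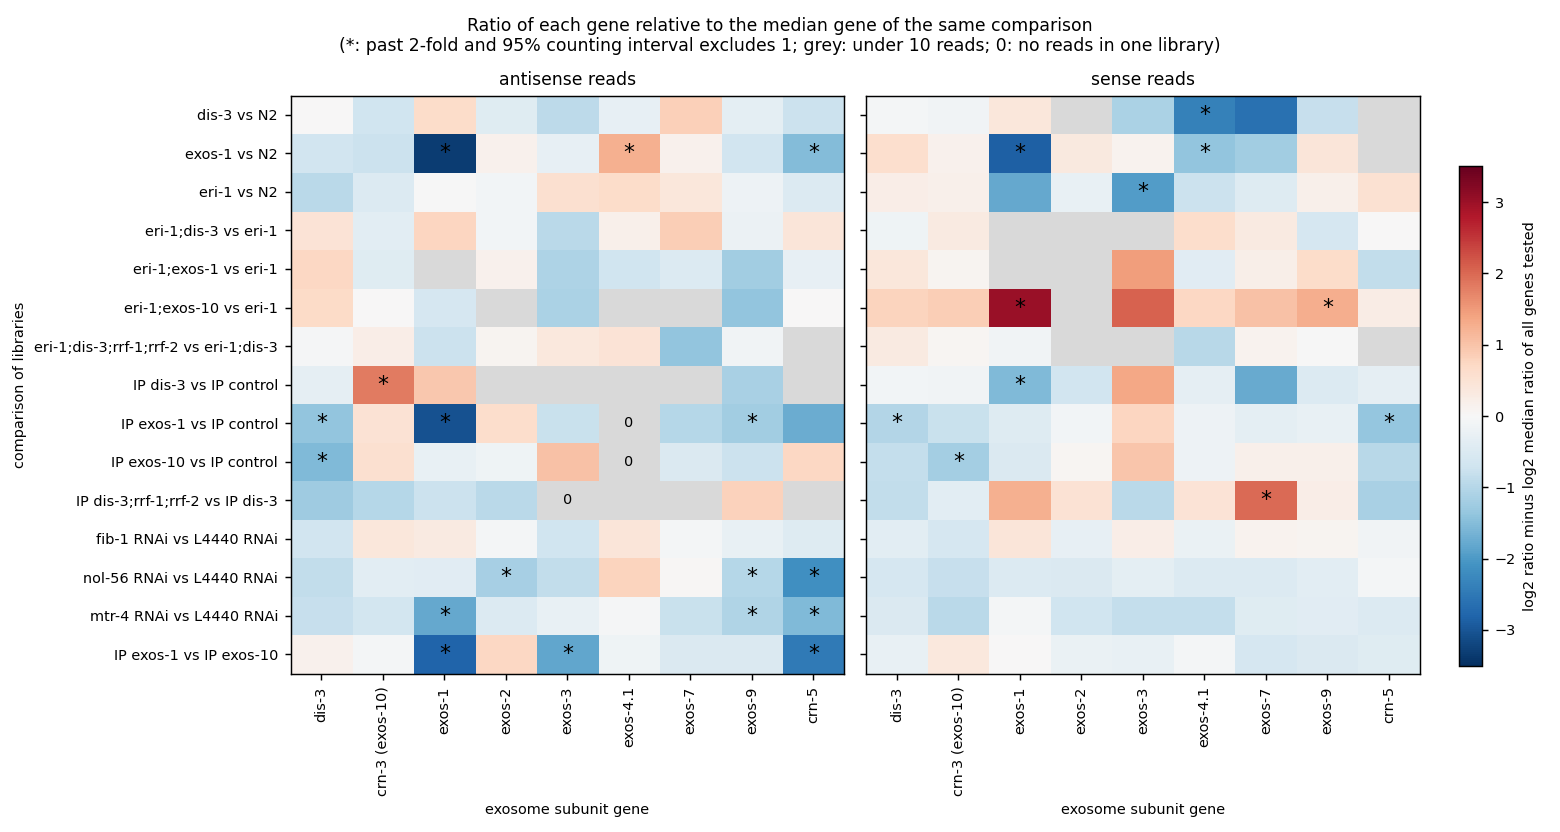
Colour gives the log2 ratio of each exosome gene minus the log2 median ratio of all genes tested, for 14 planned comparisons and 1 added (bottom row), each with the mutant, RNAi or first-named library over its control. Stars mark ratios past 2-fold of the median gene with an interval that excludes 1, and grey cells had under 10 reads over both libraries. In antisense reads exos-1 is starred in exos-1 vs N2, IP exos-1 vs IP control, IP exos-1 vs IP exos-10 and mtr-4 RNAi.

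Within a genotype, NRDE-3-bound small RNA was compared with total small RNA per antisense protein-coding reads. dis-3 was called higher in the IP control than in total eri-1(mg366), with 205 against 51.8 per 1000000, a ratio of 3.95 (2.00 to 8.38). It was the only one of 7 (22.9% of all higher, 20.0% lower). Its 34 reads in the IP control are the same that the other IP libraries were compared with above. In dis-3(ust56), crn-3 alone of 4 was called higher in the IP (21.8% of all, 17.3% lower), with 9 reads against 15. In exos-1(ust57), 0 of 9 were called higher (22.0%) or lower (17.1%). In the library labelled exos-10(ok2269), exos-1, exos-2 and exos-9 were called higher in the IP (18.3% of all, 15.9% lower), with 100, 54 and 121 reads, against 4, 1 and 5 in total small RNA. With rrf-1 and rrf-2 mutated, exos-1, with 21 reads against 7, and exos-9, with 25 against 12, were called higher (31.0% of all, 14.9% lower). exos-1 and exos-9 were the genes called in 2 genotypes. In the library labelled exos-10(ok2269), both passed the minimum of reads through the IP, with 4 and 5 reads in total small RNA. The share of all genes called in 2 genotypes was not counted, so this overlap is not read as a trait of the members. With ratios relative to the median gene, exos-3 and crn-5 were called lower in the IP labelled exos-1(ust57) (21.9% of all lower, 12.8% higher), with 27 and 14 reads, against 12 and 8 in total small RNA. dis-3 was called higher in the IP control by this measure (19.1% higher, 23.0% lower). 0 were called in dis-3(ust56) (20.6% higher, 18.3% lower), in the library labelled exos-10(ok2269) (8.31% higher, 20.3% lower) or with rrf-1 and rrf-2 mutated (15.2% higher, 22.2% lower). With the normalization number as denominator instead, between 2 and 9 members were called higher in each genotype.

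Summed over the 9 genes, antisense reads were lower in each RNAi library of young adults than in L4440, at 152 RPM in fib-1 RNAi, 42.4 RPM in nol-56 RNAi and 88.5 RPM in mtr-4 RNAi, against 297 RPM in L4440. By gene the order varied, with exos-3 at 17.6 RPM in fib-1 RNAi and 20.1 RPM in mtr-4 RNAi. Here the reads are deeper, with 1129 antisense reads over the 9 genes in L4440. In mtr-4 RNAi all 9 were called lower than in L4440 (49.0% of 10738 genes) and 0 higher (9.66%). Their median log2 ratio was -1.83, beside -1.06 for all genes, and all 9 lay below the median gene. In nol-56 RNAi all 9 were called lower (73.7% of 9693 genes) and 0 higher (2.34%), with a median of -3.01 beside -2.15. In fib-1 RNAi 4 of 9 were called lower (35.4% of 9856 genes) and 0 higher (3.47%), with a median of -0.89 beside -0.81. These 4 were dis-3, exos-3, exos-9 and crn-5. The 3 comparisons share the L4440 library, and FIB-1 and NOL-56 are proteins of the box C/D snoRNPs that methylate rRNA.

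In mtr-4 RNAi, 3 members were called lower relative to the median gene (12.9% of all lower, 22.9% higher). exos-1 had 11 antisense reads in mtr-4 RNAi, against 51 in L4440, which was 0.288 (0.135 to 0.559) of the median ratio. crn-5 had 17 against 66, at 0.343 (0.189 to 0.592), and exos-9 had 57 against 157, at 0.484 (0.351 to 0.659). In nol-56 RNAi, crn-5 had 5 against 66, at 0.227 (0.0714 to 0.558), and exos-2 and exos-9 were also called lower than the median gene (16.1% of all lower, 22.3% higher). In fib-1 RNAi 0 were called (7.56% lower, 11.8% higher). Of the members, crn-5 and exos-9 were called lower than the median gene in both mtr-4 and nol-56 RNAi, which share the L4440 library. The share of all genes called lower in both was not counted, so this overlap is not read as a trait of the members. Without the limits of a call, 9 of the 9 lay below the median gene in mtr-4 RNAi and 7 of the 9 in nol-56 RNAi. Of the 18 other genes of RNA decay described below, 14 and 17 did.

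Per sense protein-coding reads, the sense reads of the 9 genes were not called in any of the RNAi libraries, with 11.8% of all genes called lower and 22.8% higher in fib-1 RNAi, 26.0% and 27.8% in nol-56 RNAi, and 10.8% and 23.7% in mtr-4 RNAi. This count depends on the denominator. With sense miRNA reads, 5, 9 and 9 members were called lower in fib-1, nol-56 and mtr-4 RNAi, and with all reads on transcripts 1, 2 and 3. exos-1 had 83 sense reads in mtr-4 RNAi, against 89 in L4440, and crn-5 had 40 against 57. All 9 sense ratios lay below that of the median gene in mtr-4 RNAi, with a median log2 ratio of -0.41 beside 0.09, and in nol-56 RNAi, with -0.61 beside -0.12. This was not particular to the 9 genes. Of the 18 other genes of RNA decay described below, 16 lay below it in mtr-4 RNAi, with a median of -0.59. In nol-56 RNAi all 18 did, with a median of -1.10. Reads on the RNAi targets themselves take part of each library. Antisense reads on mtr-4 were 977851 in mtr-4 RNAi, against 168 in L4440, 16.4% of the normalization number. Leaving out the reads on the targets moved none of the counts of members.

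Other genes of RNA decay were read from a list of 18, all of which were called in 2 or more of the 14 planned comparisons on the antisense strand. The share of all genes called in 2 or more was not counted. Neither this number nor the calls per gene given below are therefore read as a trait of the list. In antisense reads, 8 of the 18 were called lower in dis-3(ust56) than in N2 (29.9% of all genes tested). In nol-56, mtr-4 and fib-1 RNAi, 18, 14 and 7 of the 18 were called lower than in L4440 (73.7%, 49.0% and 35.4% of all). In the libraries labelled IP exos-1(ust57) and IP exos-10(ok2269), 16 and 17 of the 18 were called higher than in the IP control (75.6% and 72.3% of all). In exos-1(ust57), dcap-2 was called higher (19.9% of all) and parn-2 lower (12.1%) than in N2. In sense reads, 10 of the 18 were called lower in nol-56 RNAi than in L4440 (26.0% of all), 4 in mtr-4 RNAi (10.8%) and 0 in fib-1 RNAi (11.8%). Against the IP control, 7 of the 18 were called lower in sense reads in the library labelled IP exos-1(ust57) (14.1% of all) and 6 in that labelled IP exos-10(ok2269) (9.47%).

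Of the genes closest to the exosome, the remaining barrel genes exos-4.2 and exos-8 were each called higher in 2 comparisons of antisense reads, and lower in 3 and 4. mtr-4, the nuclear helicase gene, was called higher in 5 and lower in 1, and it is the target of 1 RNAi library. The genes skih-2 and ttc-37 of the cytoplasmic SKI complex were called higher in 3 and 2, and lower in 2 and 4. In mtr-4 RNAi the 2 of the 18 called higher were mtr-4 and skih-2, a helicase gene of the same family, with 8314 antisense reads against 115 in L4440. Of the other 3′ exonuclease genes, disl-2 was called higher in 3 and lower in 2, and mut-7 higher in 3 and lower in 5. The poly(A)-specific ribonuclease genes parn-1 and parn-2 were each called higher in 1 and lower in 4. eri-1, an exonuclease gene that is itself mutated in the eri-1(mg366) strains, was called higher in 4 and lower in 6. It had 11 antisense reads in eri-1(mg366), against 59 in N2, and 1 sense read against 11, and was called lower on both strands.

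The 5′ exonuclease genes xrn-1 and xrn-2 were called higher in 3 and 4 comparisons of antisense reads, and lower in 2 and 4. The deadenylase genes ccf-1, ccr-4, panl-2 and panl-3 were called higher in 2, 4, 2 and 2, and lower in 2, 2, 5 and 2. The decapping genes dcap-1 and dcap-2 were called higher in 3 each, and lower in 5 and 1. In sense reads dcap-2 was called higher in 3 comparisons and lower in 4. The lower calls were in the libraries labelled IP exos-1(ust57) (14.1% of all) and IP exos-10(ok2269) (9.47%), in the IP with rrf-1 and rrf-2 mutated (11.4%) and in nol-56 RNAi (26.0%). dcap-2 was called higher in dis-3(ust56) than in N2 (6.54% of all), with 24 reads against 27, a ratio of 2.13 (1.18 to 3.84). It was also called higher in eri-1;exos-1 (24.3% of all), with 46 reads, and in eri-1;dis-3 (8.03%), with 41, against 18 in eri-1(mg366). In exos-1(ust57) dcap-2 had 79 sense reads, against 27 in N2. That ratio of 1.94 (1.24 to 3.12) was not past 2-fold.

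By its antisense pattern, crn-3 was most like mma-1, arx-4 and bub-3, with Pearson correlations of 0.961, 0.946 and 0.946 over the 12 libraries of total small RNA. This likeness is a description over libraries that share stages and depth, among 7404 genes with at least 100 antisense reads.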

How the data were processed

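Small RNAs of 18 to 40 nt, by the labels, were sequenced from 17 libraries, 1 per condition. The paper's methods name Bowtie2 with default parameters (version not given in the sources used here) for mapping clean reads to the genome and the WS243 transcriptome. Raw counts of sense and antisense reads per transcript, not normalized, are what the authors deposited. The files carry no column names. Of miRNA and piRNA reads in every total library, 99.6% or more are in column 2, which was therefore read as sense.

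Transcript counts were summed per gene ID. Ensembl release 115 (WBcel235) gave the names of 44848 of 45506 IDs. Antisense RNA transcripts (65 rows) and rows that name no gene were left out. Bowtie2 by default reports 1 alignment per read, so reads on sequence common to several transcripts are divided among them, which the sum per gene restores only within a gene. To obtain the normalization number, sense reads of rRNA and of protein-coding genes were subtracted from all reads on transcripts, which stood in for the genome-mapped total. IP and total libraries were compared per antisense protein-coding reads. Ratios have exact conditional binomial (Clopper-Pearson) intervals at 95%, levels have exact Poisson intervals, and the floor was 3 reads. With 1 library per condition, no condition was tested and no p-value was computed. The intervals compare libraries and not conditions, and PCR copies of a molecule count as separate reads.

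All 9 exosome genes are named. The 18 decay genes are given as counts, and by name where called in 2 or more comparisons or targeted, which all 18 were. The members and lists were chosen with earlier results of these data known. The calls were run on simulated Poisson counts for the antisense comparison of exos-1(ust57) with N2, with changes planted. Such counts hold the same counting error as the intervals and no other spread between libraries, so they do not check the calls against that spread. Denominators, the sum over transcripts, the minimum of 10 reads and the 2-fold limit were varied. Ratios relative to the median gene or to the other members, denominators without the RNAi target reads and the comparison between 2 IP libraries were added after the data were seen. Software was matplotlib 3.10.9, scipy 1.17.1, numpy 2.4.6 and pandas 2.3.3 under Python 3.11.15.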

Additional observations from a re-analysis of the deposited data

How the results depend on the processing

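Over 438 alternatives, 327 values stayed within the limit set for them and 111 moved. Of 509 ratios of called members under an alternative, 20 lay on the other side of 1 and 4 were called in the other direction. With sense miRNA reads, the sense ratio of exos-1 in IP dis-3 became 6.89 and that of crn-5 in IP exos-1 became 4.06, each called lower otherwise. Relative to the median gene, the antisense ratios of dis-3 and exos-9 in IP exos-1 became 0.383 and 0.427, each called higher otherwise. Each condition has 1 library, so there was no replicate to leave out, and single reads decide many of the calls. No paired analysis was possible because no group has 2 libraries. IP dis-3 had the fewest antisense reads on the 9 genes, 29. The cause of the moves was not tested. A denominator shifts every gene of a comparison alike.

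Counts are of members called lower or higher in the library of the named mutant or RNAi against its control. With all reads on transcripts as denominator, antisense counts became 2 lower in dis-3, 0 higher in exos-1, 2 lower in eri-1 and 0 lower in eri-1;exos-1. They became 0 higher and 1 lower in eri-1;exos-10, 0 higher and 2 lower in IP dis-3, and 4 higher with rrf-1 and rrf-2 in the IP. Sense counts became 6 lower in dis-3, 0 lower in eri-1, 1 lower in eri-1;dis-3, 0 higher in eri-1;exos-10, 8 lower in IP dis-3, 3 higher and 0 lower in IP exos-1, 4 higher in IP exos-10, 6 higher with rrf-1 and rrf-2 in the IP, and 1, 2 and 3 lower in fib-1, nol-56 and mtr-4 RNAi. IP against total became 0 higher and 2 lower in the IP control, 0 and 1 in dis-3, and 8, 9 and 0 higher in exos-1, exos-10 and with rrf-1 and rrf-2.

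With antisense protein-coding reads, antisense counts became 2 lower in dis-3, 0 higher in exos-1, 0 lower in eri-1;dis-3, 1 higher and 0 lower in eri-1;exos-1, 1 higher in IP dis-3, 2 higher and 1 lower in IP exos-1, 4 higher in IP exos-10 and 2 lower in fib-1 RNAi. With the normalization number, IP against total became 2 higher in the IP control, 3 in dis-3, 9 in exos-1, 9 in exos-10 and 8 with rrf-1 and rrf-2.

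With sense miRNA reads, antisense counts became 7 lower in dis-3, 4 in eri-1, 1 in eri-1;dis-3, 0 lower and 1 higher in eri-1;exos-1 and 4 higher in IP dis-3. Sense counts became 7 lower in dis-3, 1 higher and 1 lower in exos-1, 8 higher and 0 lower in IP dis-3, 9 higher and 0 lower in IP exos-1, 9 higher in IP exos-10, 1 higher with rrf-1 and rrf-2 in the IP, and 5, 9 and 9 lower in fib-1, nol-56 and mtr-4 RNAi.

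Relative to the median gene, antisense counts became 0 lower in dis-3, eri-1, eri-1;dis-3, eri-1;exos-1 and fib-1 RNAi, 0 higher in eri-1;exos-10, 1 higher in IP dis-3, 0 higher and 3 lower in IP exos-1, 0 higher and 1 lower in IP exos-10, and 3 lower in nol-56 and in mtr-4 RNAi. Sense counts became 1 lower in dis-3 and IP dis-3, 0 higher and 2 lower in IP exos-1, 0 higher and 1 lower in IP exos-10, and 1 higher with rrf-1 and rrf-2 in the IP.

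At 1.5-fold, antisense counts became 4 lower in exos-1 and 2 in eri-1. Sense counts became 2 higher in eri-1;exos-1, 5 in eri-1;exos-10, 4 lower in IP dis-3, 2 lower in IP exos-1, 3 higher and 1 lower in IP exos-10, and 6 and 4 lower in nol-56 and mtr-4 RNAi. With no minimum of reads, sense became 1 lower with rrf-1 and rrf-2 in total small RNA. With the transcript that has the most reads, antisense became 1 lower in eri-1;dis-3, sense became 1 higher in eri-1;exos-1 and 1 lower in IP exos-10 and nol-56 RNAi, and IP against total became 0 higher in dis-3 and 1 in exos-1.

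Of the sense ratios of the mutated genes, exos-1 in IP exos-1 became 1.68 with all reads and 7.56 with sense miRNA reads. crn-3 became 0.802 with all reads and 0.891 relative to the other members in eri-1;exos-10. In IP exos-10 it became 0.945 with all reads, 5.88 with sense miRNA reads and 0.409 on C14A4.4a, the transcript with the most reads. The reads of its other transcript, C14A4.4b, went the other way. dis-3 became 0.444, 0.220 and 1.62 with all reads, sense miRNA reads and the other members in dis-3, and 0.298, 18.9 and 1.15 in IP dis-3.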
